A study of Rattus norvegicus with 12 samples.

Results

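The rat microRNAs rno-miR-21-5p, rno-miR-22-3p, rno-miR-34a-5p and rno-miR-210-3p (the species prefix is left out in most of the text), which are widely studied as markers of injury, p53 activity and low oxygen, were followed in rat serum after caffeine (CAF), dextromethorphan (DEX) or both (CAF+DEX), beside controls. They were picked by name and are 4 of the 752 mature names in the deposited small RNA sequencing table. All libraries came from male Sprague-Dawley rats (Jcl:SD), 7 weeks old at dosing. Each rat was dosed by mouth on a single occasion, and 4 groups were formed. In CAF the dose was caffeine at 180 mg/kg. In DEX it was dextromethorphan, a cough suppressant that blocks NMDA receptors, as its hydrobromide monohydrate at 200 mg/kg. Rats in CAF+DEX were given both, dextromethorphan 1 h after caffeine, and control rats were given only the sterile distilled water used as vehicle. Blood was drawn 1 h after dextromethorphan. The design text gives 5 rats per group, and 3 libraries per group were analysed here. The labels do not tie libraries to individual rats, so a p-value reflects library-to-library spread, which may be technical. Libraries carry the names in the table's columns, such as DEX1 or ctrl3.

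MicroRNAs are short RNAs that guide Argonaute proteins to partly complementary messages, mainly through the seed, bases 2 to 8 of the mature strand, and lower the output of those messages. miR-21 is induced in many injured or inflamed tissues and targets Pdcd4, a brake on protein synthesis. miR-34a is transcribed from a gene that p53 activates directly, and it represses Sirt1, Bcl2 and cell cycle genes. The miR-210 gene is activated by hypoxia-inducible factor, and the microRNA lowers iron-sulphur cluster assembly proteins and with them mitochondrial respiration. miR-22 is expressed broadly, including in heart and skeletal muscle and in red-cell precursors, and has been linked to cardiac stress and to cellular senescence. In serum such microRNAs travel in vesicles or bound to proteins. The number of cells that release a microRNA and the amount released by each cannot be told apart.

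The mature strands are shown to compare the seeds of the members. Target messages were not analysed. All 4 names matched a RefSeq mature sequence (build GRCr8). Capitals mark the seed, and the strands are written 5′ to 3′.
miR-21-5p: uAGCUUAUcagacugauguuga
miR-22-3p: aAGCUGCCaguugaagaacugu
miR-34a-5p: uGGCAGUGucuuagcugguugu
miR-210-3p: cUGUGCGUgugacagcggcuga
No seed was shared between members. Among the rat mature sequences in the RefSeq table, the seeds of miR-21-5p, miR-22-3p and miR-210-3p each belonged to that microRNA alone. The seed of miR-34a-5p was shared by 5 sequences, itself included, and the others are shown to compare them with it.
miR-34b-5p: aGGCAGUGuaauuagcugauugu
miR-34c-5p: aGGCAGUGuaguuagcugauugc
miR-449a-5p: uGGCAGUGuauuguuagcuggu
miR-449c-5p: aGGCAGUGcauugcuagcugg
In serum nearly all of this seed came from miR-34a-5p itself, with a mean of 12397 FPKM (fragments per kilobase, scaled to the assigned reads of the library) over 12 libraries. miR-34c-5p averaged 317 FPKM and miR-449a-5p, best known from ciliated cells, 282 FPKM. miR-34b-5p was above 0 in 5 libraries and miR-449c-5p in 4.

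The genes lie apart from each other in the table's coordinates, for which the submitters' processing notes name build rn6. miR-21-5p was listed at chromosome 10, 73902263 to 73902284 on the minus strand, and miR-22-3p on the same chromosome at 62299648 to 62299669 on the plus strand. miR-34a-5p was at chromosome 5, 167092510 to 167092531, on the plus strand. miR-210-3p was at chromosome 1, 214208378 to 214208399, on the minus strand. Each was listed at a single locus.

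Reads assigned to the listed microRNAs numbered 1504963 to 1842796 per library in CAF, 403913 to 895792 in DEX, 758290 to 1160717 in CAF+DEX and 1304868 to 2625593 in control. A haemolysis index (miR-451-5p, which is rich in red cells, over miR-23a-3p, in log2) ran from -7.11 to -6.40 in CAF, -6.47 to -5.13 in DEX, -6.44 to -5.67 in CAF+DEX and -7.83 to -7.11 in control. DEX2 and DEX3 were the shallowest libraries and had the highest indices, so some results on DEX are also given without them. Every CAF, DEX and CAF+DEX library had a higher index than every control library, CAF3 (-7.110) only just above ctrl3 (-7.115). A fit with the index as a covariate therefore cannot tell the index apart from treatment in comparisons with control. Serum holds no labelled cell type. Of the 7 red-cell, 4 hepatocyte, 8 epithelium, 5 leukocyte and 5 platelet and endothelium markers in the table none was at 0 in every library, and of 7 striated muscle markers 1 was. Summed hepatocyte markers were 3149320 to 5059470 FPKM in CAF, 3080490 to 7182480 in DEX, 3547610 to 4775210 in CAF+DEX and 852361 to 2326000 in control. Summed epithelium markers were 93862 to 153289 FPKM in CAF, 118290 to 312365 in DEX, 58104 to 146243 in CAF+DEX and 40744 to 74853 in control. Summed striated muscle markers were 84952 to 203104 FPKM in CAF, 13551 to 51534 in DEX, 28969 to 75795 in CAF+DEX and 8498 to 24994 in control, and of the 4 tested 3 rose in CAF, 1 in DEX and 2 in CAF+DEX. Summed red-cell markers were 5375000 to 6311540 FPKM in DEX and 5193070 to 6202810 in control. In CAF they were 4651760 to 4956150 and in CAF+DEX 5076700 to 6362820. Of the 7 red-cell markers 3 rose in DEX, among them miR-451-5p by 1.79 ± 0.33 on the log2 scale (SE, limma adjusted p = 0.00226). The most abundant, miR-16-5p and miR-92a-3p, had 0.23 ± 0.20 and -0.82 ± 0.29 there (adjusted p = 0.412 and 0.0608). In CAF+DEX 1 of the 7 rose and 1 fell, and in CAF 1 fell. Over all 366 tested microRNAs, 6.83% rose in CAF, 11.5% in DEX and 6.56% in CAF+DEX (limma adjusted p under 0.05). The shares that fell were 1.09%, 0.546% and 4.37%. This split depended on the scaling, as given below. The part of the markers in the results below was not tested.

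None of the 4 microRNAs passed the test in any comparison. In each of the 6 comparisons 0 of 4 passed limma's test (adjusted p under 0.05 over 366 microRNAs), and in each 0 of 4 had an unadjusted p under 0.05. Over the same fit 7.92% of the 366 microRNAs passed for CAF against control, 12% for DEX against control and 10.9% for CAF+DEX against control. For CAF+DEX against DEX 3.55% passed, for the interaction of the drugs 4.64%, and for CAF+DEX against CAF 0%, where voom applied to the recovered reads gave 0 as well. Unadjusted p-values under 0.05 made up 24.9% of the 366 for CAF, 32.2% for DEX and 28.1% for CAF+DEX against control. They made up 6.01% (22 microRNAs) for CAF+DEX against CAF, 16.1% for CAF+DEX against DEX and 21.3% for the interaction. The median size of the log2 fold change over the 4 was 0.11 for CAF, 0.18 for DEX and 0.23 for CAF+DEX against control. Over all tested microRNAs it was 0.50, 0.69 and 0.56 in the same comparisons. For CAF+DEX against CAF it was 0.34 over the 4 and 0.33 over all. For CAF+DEX against DEX these medians were 0.24 and 0.42, and for the interaction 0.34 and 0.63. Most tested microRNAs have fewer reads than the 4. Against control the SE of the 4 ran from 0.23 to 0.38, and the median SE of all 366 was 0.43. With median-of-ratios scaling the median over all 366 was -0.04 for CAF and 0.11 for DEX (log2 fold change against control), against 0.19 and 0.47 as deposited. Values below are on the deposited scale. A p above the threshold does not show that levels were equal, and the 95% intervals below give the sizes the data still allow.

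**Figure D1:**
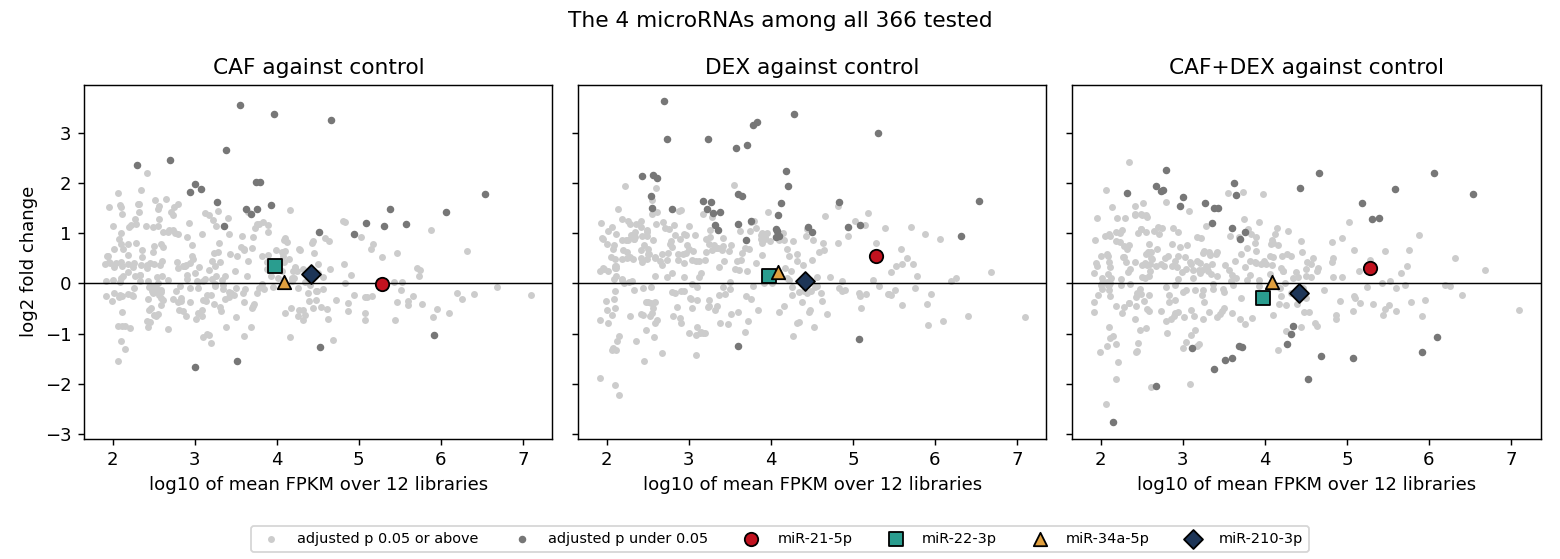
Log2 fold change against log10 of the mean FPKM for all 366 tested microRNAs in CAF, DEX and CAF+DEX, each against control. Light dots did not pass, dark dots passed at an adjusted p under 0.05, and the coloured symbols mark the 4 microRNAs, which lie between -0.28 and 0.55 in all 3 panels.

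The members differed widely in level. FPKM is scaled by length, and all 4 strands have 22 bases. miR-21-5p averaged 190578 FPKM over 12 libraries, rank 32 of 752 names and 0.419% of assigned reads. miR-210-3p averaged 26187 FPKM (rank 75), miR-34a-5p 12397 FPKM (rank 104) and miR-22-3p 9490 FPKM (rank 112). The order miR-21-5p, miR-210-3p, miR-34a-5p, miR-22-3p held in 11 of 12 libraries. In DEX1 miR-22-3p stood above miR-34a-5p.

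**Figure D2:**
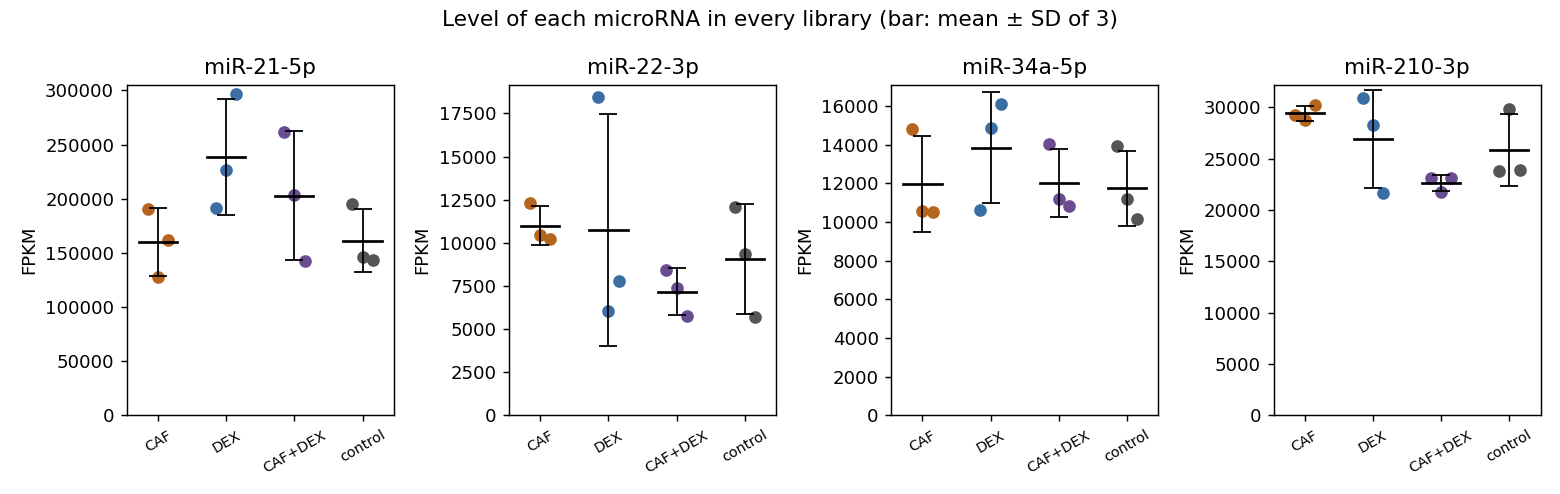
FPKM for each microRNA in the 3 libraries of CAF, DEX, CAF+DEX and control, on axes that start at 0. Dots are libraries and bars are the mean with its SD (n = 3). miR-210-3p stays between 21607 and 30851 FPKM, and the DEX1 dot of miR-22-3p at 18428 FPKM stands above all others of that panel.

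miR-21-5p, the injury-induced member, had the highest mean in DEX. Its levels were 191654, 226267 and 296588 FPKM in DEX1, DEX2 and DEX3, against 194809, 145772 and 143135 FPKM in ctrl1, ctrl3 and ctrl5. The ranges overlapped only through DEX1 and ctrl1. The DEX mean of 238169 ± 53470 FPKM compares with a control mean of 161239 ± 29103 FPKM (SD, n = 3 each). The fold change was 1.47 (95% interval 0.984 to 2.19, limma adjusted p = 0.169), and its p ranked 127 of 366, counted from the smallest. Across 21 alternative settings its adjusted p ran from 0.0967 to 0.995 and its log2 fold change from 0.02 to 0.70. The lower end came with the haemolysis index as a covariate, against 0.55 without it, and index and treatment cannot be told apart there. Without DEX2 and DEX3 the log2 fold change was 0.26. It also depended on the scaling, at 0.14 with median-of-ratios scaling and 0.28 with values rescaled without miR-191a-5p.

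After both drugs miR-21-5p spread widely, at 261512, 203688 and 142388 FPKM in CAFDEX2, CAFDEX3 and CAFDEX6. Caffeine libraries had 190917, 128103 and 162100 FPKM in CAF3, CAF4 and CAF5. These ranges overlapped each other and control. Against control the fold change was 1.23 for CAF+DEX (0.825 to 1.84, adjusted p = 0.479) and 0.992 for CAF (0.665 to 1.48, adjusted p = 0.971). The group means fell in the order DEX, CAF+DEX, control, CAF, and the highest was 1.49 times the lowest. Control and CAF, neighbours in that order, were nearly level, and the intervals for DEX against CAF+DEX and for CAF+DEX against control also included no difference.

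miR-34a-5p, the direct p53 target, was among the steadiest. It measured 14826, 10557 and 10541 FPKM in CAF3, CAF4 and CAF5, and 10605, 14859 and 16093 FPKM in DEX1, DEX2 and DEX3. In CAFDEX2, CAFDEX3 and CAFDEX6 it was 14035, 11209 and 10808 FPKM, against 13911, 11184 and 10137 FPKM in ctrl1, ctrl3 and ctrl5. All 4 groups overlapped, and each held at least 1 library near the low end and 1 near the high end. Fold changes against control were 1.02 for CAF (0.682 to 1.51), 1.17 for DEX (0.787 to 1.74) and 1.03 for CAF+DEX (0.689 to 1.53), with adjusted p of 0.962, 0.560 and 0.938. Its recovered read counts were whole in all 12 libraries, from 143 in DEX3 to 646 in ctrl3. The share of reads in DEX3 was 0.0354% with an exact (Clopper-Pearson) 95% interval of 0.0298 to 0.0417%, which covers counting error only.

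miR-210-3p, the hypoxia-induced member, varied least. Its levels were 29269, 28736 and 30203 FPKM in CAF3, CAF4 and CAF5, against 23761, 29829 and 23862 FPKM in ctrl1, ctrl3 and ctrl5. All caffeine libraries lay above the control mean of 25817 ± 3475 FPKM (SD, n = 3), but ctrl3 was higher than CAF3 and CAF4. The fold change for CAF was 1.14 (0.815 to 1.61, adjusted p = 0.668). DEX libraries spread over 30851, 28232 and 21607 FPKM in DEX1, DEX2 and DEX3, a fold change of 1.04 (0.737 to 1.46, adjusted p = 0.880).

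After both drugs miR-210-3p was at 23130, 21700 and 23066 FPKM in CAFDEX2, CAFDEX3 and CAFDEX6. All 3 lay below all 3 controls, as did 15.8% of the 366 tested microRNAs, and below all 3 caffeine libraries, as did 7.38%. No member lay wholly apart from its comparison group in CAF or DEX against control, where 26% of tested microRNAs lay above all controls in each and 6.56% (CAF) and 7.1% (DEX) below. None lay wholly above in CAF+DEX against control (18%), CAF (3.55%) or DEX (3.83%), or wholly below DEX (13.1%). The CAF+DEX mean of 22632 ± 808 FPKM gave a fold change of 0.881 against control (0.627 to 1.24, adjusted p = 0.619) and of 0.770 against CAF (0.548 to 1.08, adjusted p = 0.793). Neither difference passed.

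On the log2(FPKM + 40) scale the SD of miR-210-3p over all 12 libraries was 0.20, the fourth smallest of 366, and within groups it was 0.17, the seventh smallest. For miR-34a-5p the SD over all libraries was 0.24 (rank 14), for miR-21-5p 0.37 (rank 58) and for miR-22-3p 0.51 (rank 118). The median over all tested microRNAs was 0.66. Most tested microRNAs have fewer reads than these 4.

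miR-22-3p was the member with the widest spread, and a single library set much of it. Levels were 18428, 6046 and 7765 FPKM in DEX1, DEX2 and DEX3, against 12053, 9372 and 5713 FPKM in ctrl1, ctrl3 and ctrl5. DEX1 stood far above the other DEX libraries and above every other library of the study. Its share of reads, 0.0405% (exact 95% interval 0.0365 to 0.0449%), lay outside the counting intervals of DEX2 (0.0101 to 0.0172%, on 59 reads) and DEX3 (0.0133 to 0.0216%, on 69 reads). The fold change for DEX was 1.10 (0.628 to 1.94, adjusted p = 0.803). Its log2 fold change of 0.14 became -0.33 without DEX1 and 1.09 without DEX2 and DEX3, and neither passed (adjusted p over the alternatives 0.143 to 0.874). With DEX1 left out the within-group SD of miR-22-3p was 0.35 in place of 0.52.

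In the other groups miR-22-3p was at 12301, 10467 and 10209 FPKM in CAF3, CAF4 and CAF5 and at 8409, 7373 and 5744 FPKM in CAFDEX2, CAFDEX3 and CAFDEX6. Every CAF+DEX library lay below every CAF library, as for 7.38% of tested microRNAs. The fold change of CAF+DEX against CAF was 0.648 (0.369 to 1.14, adjusted p = 0.793). Against control it was 1.27 for CAF (0.721 to 2.22, adjusted p = 0.643) and 0.821 for CAF+DEX (0.468 to 1.44, adjusted p = 0.643). The means fell in the order CAF, DEX, control, CAF+DEX, with the highest 1.53 times the lowest.

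**Figure D3:**
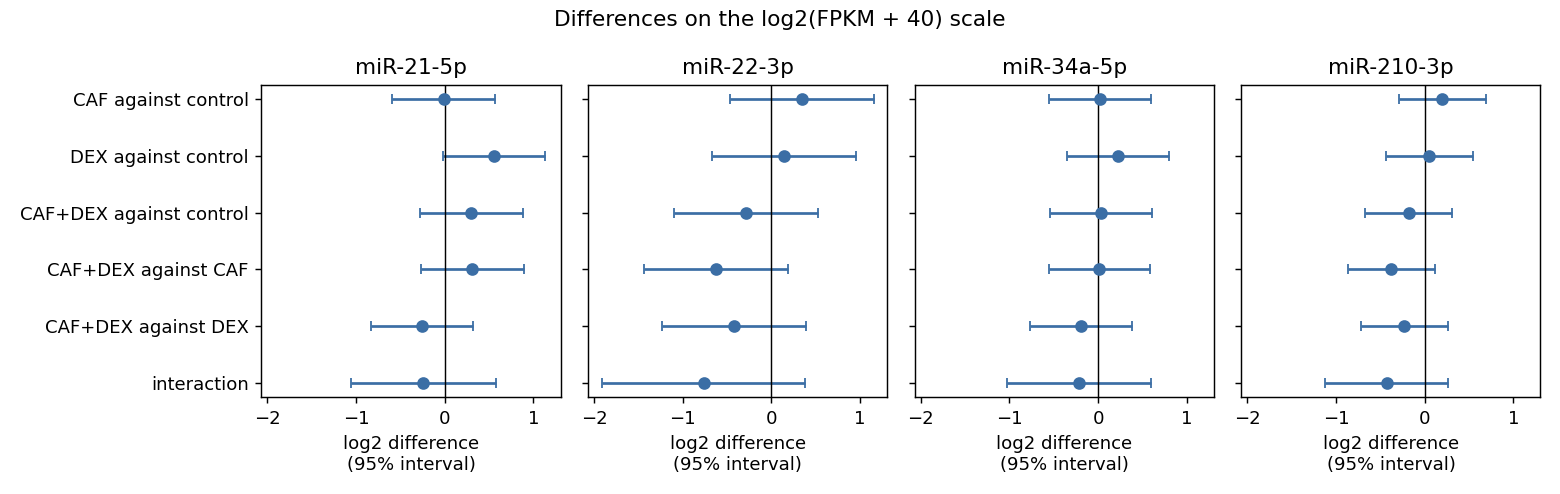
Log2 differences with 95% intervals for each microRNA in 6 comparisons, on the log2(FPKM + 40) scale. Every interval includes 0, and that of miR-21-5p in DEX against control, -0.02 to 1.13, comes closest to leaving it out.

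What caffeine added to dextromethorphan was read from CAF+DEX against DEX. All 4 log2 fold changes were negative, although those of miR-34a-5p and miR-210-3p were positive with median-of-ratios scaling, those of miR-21-5p and miR-34a-5p without DEX2 and DEX3, and that of miR-22-3p without DEX1. They ran from -0.43 ± 0.38 for miR-22-3p (SE, adjusted p = 0.616) to -0.19 ± 0.27 for miR-34a-5p (adjusted p = 0.755). Their median was -0.24, and the median of all 366 was also -0.24. The interaction compared the effect of the pair with the summed log2 effects of each drug given alone. It was -0.77 ± 0.54 for miR-22-3p (adjusted p = 0.471), -0.43 ± 0.33 for miR-210-3p (0.520), -0.24 ± 0.38 for miR-21-5p (0.822) and -0.21 ± 0.38 for miR-34a-5p (0.827), and it was positive for all but miR-22-3p with median-of-ratios scaling. The median departure of the 4 was -0.34 and that of all tested microRNAs -0.39. With median-of-ratios scaling the medians of all tested microRNAs were 0.10 for the interaction and -0.0029 for CAF+DEX against DEX. These contrasts share libraries with the comparisons against control, so their values are not independent of those above.

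Ratios between members of the same library do not move with the other microRNAs in that library. Of the 6 ratios none differed between the 4 groups by an exact permutation test over all 369600 assignments of libraries, which measures the spread of the group means and has no direction. The p-values adjusted over the 6 ran from 0.552 to 0.923. The steadiest was miR-21-5p to miR-34a-5p, whose log2 ratio was lowest in CAF4 and highest in CAFDEX2, a range of 0.62. It averaged 3.74 ± 0.18 in CAF, 4.10 ± 0.15 in DEX, 4.04 ± 0.28 in CAF+DEX and 3.77 ± 0.06 in control (SD, n = 3 each; exact permutation p = 0.121, adjusted 0.552). DEX libraries lay above control libraries for this ratio, and CAF+DEX libraries did so in 2 of 3. CAF+DEX and CAF libraries also lay apart in the ratios of miR-21-5p to miR-22-3p and of miR-22-3p to miR-34a-5p. Such gaps were not tested one by one, and how often ratios of other microRNAs show them was not counted.

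A pair of ratios depended on the split between DEX1 and the other DEX libraries. The log2 ratio of miR-21-5p to miR-22-3p averaged 3.85 ± 0.21 in CAF, 4.61 ± 1.07 in DEX, 4.78 ± 0.17 in CAF+DEX and 4.20 ± 0.38 in control, with the lowest value, 3.38, in DEX1 (exact permutation adjusted p = 0.552). Without DEX1 the exact permutation adjusted p was 0.0226, and 0.0333 for miR-22-3p to miR-34a-5p, which was 0.796 with it. Without DEX2 and DEX3, with DEX1 as the lone DEX library, these values were 0.0493 and 0.0343. A lone library gives no spread for DEX, so that test assumes it varies like the other groups. DEX1 held the lowest value of the first ratio and the highest of the second. Leaving it out therefore removes an extreme of the values under test. The adjustment covers the 6 ratios and not the number of alternative settings, so nothing is concluded from these p-values.

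**Figure D4:**
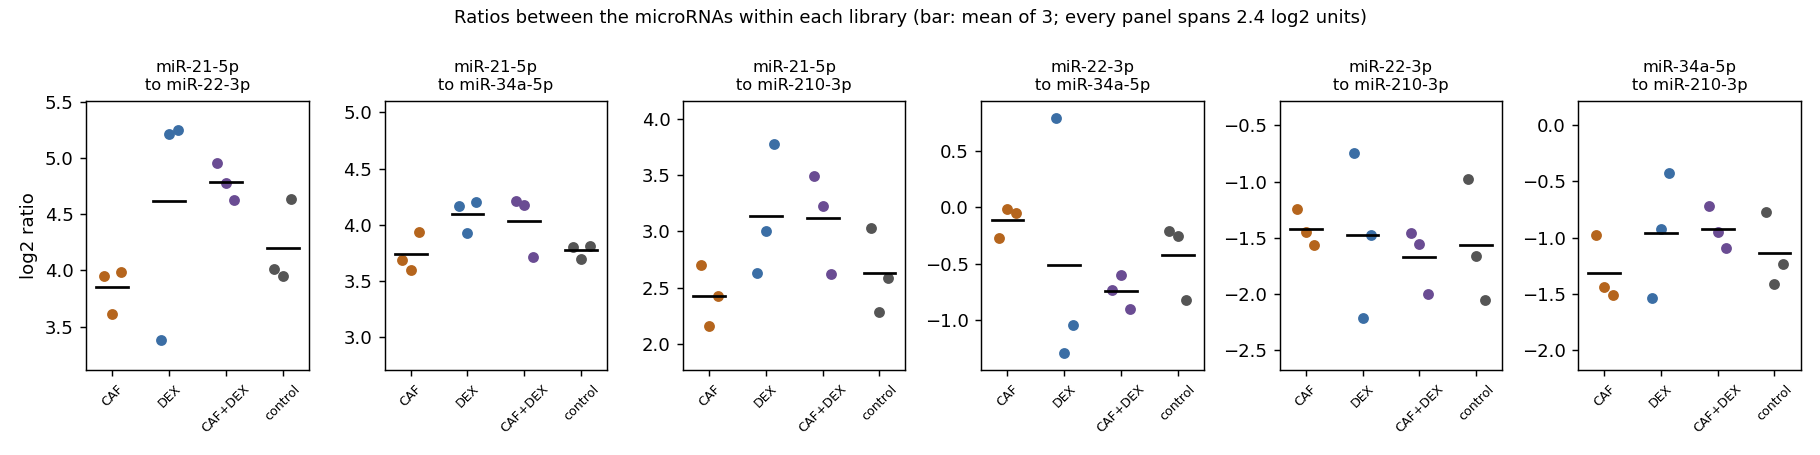
Log2 ratio of each pair of the 4 microRNAs in the 3 libraries of each group, with the mean as a bar. Every panel spans the same number of log2 units. In the 3 ratios that hold miR-22-3p, and in miR-34a-5p to miR-210-3p, the DEX1 dot lies at the edge of all 12 libraries.

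The hairpins show where the other strand of each precursor lies, since both strands can be read in serum. Capitals mark the mature strands within the RefSeq hairpin (GRCr8), the 5p strand first.
Mir21: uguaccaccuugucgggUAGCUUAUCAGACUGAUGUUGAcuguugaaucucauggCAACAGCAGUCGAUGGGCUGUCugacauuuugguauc
Mir22: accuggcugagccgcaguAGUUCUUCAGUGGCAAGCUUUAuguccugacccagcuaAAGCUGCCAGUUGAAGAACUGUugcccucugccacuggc
Mir34a: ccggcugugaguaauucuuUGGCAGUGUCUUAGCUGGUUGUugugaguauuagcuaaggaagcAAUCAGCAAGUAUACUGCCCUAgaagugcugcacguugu
Mir210: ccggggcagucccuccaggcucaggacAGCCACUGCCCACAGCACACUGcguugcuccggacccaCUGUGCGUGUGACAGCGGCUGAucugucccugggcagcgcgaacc
The listed strand outnumbered its partner in every library. Over all libraries miR-21-5p had 60208 recovered reads and miR-21-3p 178, miR-22-3p 3395 and miR-22-5p 61, miR-34a-5p 4141 and miR-34a-3p 5, and miR-210-3p 9220 and miR-210-5p 55. The partner of miR-34a-5p was at 0 in 9 libraries. That of miR-210-3p was at 0 in DEX2 and DEX3.

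Of the 3 partner strands with enough reads to be tested none passed in any comparison. Reads of miR-21-3p numbered 10, 12 and 14 in DEX1, DEX2 and DEX3 and 21.5, 15 and 18 in ctrl1, ctrl3 and ctrl5, from unequal depths. Scaled, miR-21-3p averaged 1104 ± 545 FPKM in DEX and 450 ± 184 FPKM in control (SD, n = 3 each; log2 fold change 1.16 ± 0.49, SE, limma adjusted p = 0.114). miR-22-5p repeated the height of its partner in DEX1, with 14 reads there and 1 read each in DEX2 and DEX3, against 3, 8 and 1 in ctrl1, ctrl3 and ctrl5. miR-210-5p had 3, 0 and 0 reads in the DEX libraries and 9, 21 and 5 in control (log2 fold change -2.01 ± 0.70, SE, adjusted p = 0.0608).

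Other microRNAs of the same pathways were set beside the members. Of 13 names on a list of further p53-responsive microRNAs, which holds the other miR-34 strands and microRNAs whose transcription or processing p53 promotes, 9 were tested. After CAF 1 rose, after DEX 2 rose and after CAF+DEX 1 rose, and none fell. Over all 366, the share that rose was 6.83% in CAF, 11.5% in DEX and 6.56% in CAF+DEX, and the share that fell was 1.09%, 0.546% and 4.37%. This split depended on the scaling. In CAF 25 were higher and 4 lower on the deposited scale, 12 and 7 with median-of-ratios scaling, and 16 and 4 without miR-191a-5p. In DEX the counts were 42 and 2 on the deposited scale, 15 and 19 with median-of-ratios scaling, and 16 and 12 without miR-191a-5p. In CAF+DEX they were 24 and 16, 19 and 25, and 12 and 27 in the same order of scalings. The 2 in DEX were miR-192-5p, with a log2 fold change of 2.99 ± 0.32 in DEX (SE, limma adjusted p = 1.9e-05), and miR-194-5p with 3.39 ± 0.35 (1.9e-05). Both are abundant in liver, gut and kidney, and miR-192-5p is also one of the hepatocyte markers. In CAF miR-192-5p rose by 1.15 ± 0.32 (adjusted p = 0.0419) and in CAF+DEX by 1.28 ± 0.32 (0.0296). The 3 tested miR-34 strands on the list did not pass. miR-34c-5p had 0.39 ± 0.52 in CAF, 0.58 ± 0.52 in DEX and 0.36 ± 0.52 in CAF+DEX. miR-34c-3p had 0.63 ± 0.53, 0.95 ± 0.53 and 1.09 ± 0.53 in the same groups, and miR-34b-3p had 0.37 ± 0.79, -1.08 ± 0.79 and 0.63 ± 0.79. The list's median was 0.39 in CAF, 0.95 in DEX and 0.63 in CAF+DEX, against 0.19, 0.47 and 0.24 over all tested microRNAs. In DEX both calls were kept in 20 of 21 alternatives. They were lost with the haemolysis index as a covariate, where the log2 fold changes were 1.95 for miR-192-5p and 2.06 for miR-194-5p, the smallest of all alternatives, and where 1 of 366 microRNAs passed. With that covariate miR-192-5p had 0.72 in CAF and 0.44 in CAF+DEX and passed in neither. Index and treatment cannot be told apart in these comparisons with control. The call of miR-192-5p was kept in 10 of 21 alternatives in CAF, where leaving out any CAF library, ctrl1, ctrl3, DEX3 or CAFDEX2 lost it, and in 15 in CAF+DEX, where leaving out CAFDEX2, CAFDEX3, ctrl1 or ctrl3 lost it. Without the filter on low values it was lost in both. In CAF it was also lost with median-of-ratios scaling and without miR-191a-5p. Both miR-192-5p and miR-194-5p were lower in CAF+DEX than in DEX. miR-192-5p fell by 1.71 ± 0.32 (adjusted p = 0.00416) and miR-194-5p fell by 2.34 ± 0.35 (0.00157). Both calls were kept in 20 of 21 alternatives and lost without DEX2 and DEX3, where the log2 fold changes were -1.28 and -1.55 and 0 of 364 microRNAs passed limma's test (56 at an unadjusted p under 0.05). Over all 366, 3.28% fell and 0.273% rose in that comparison, 12 and 1 microRNAs, against 11 and 6 with median-of-ratios scaling. Both were also below the sum of the single drugs, with interactions of -2.87 ± 0.46 and -3.01 ± 0.49 (adjusted p = 0.00145 each), kept in 20 of 20 alternatives. Of the markers, 3 of 4 for hepatocytes and 7 of 8 for epithelium rose in DEX, and 2 of 4 and 5 of 8 were lower in CAF+DEX than in DEX. Their part in the change of miR-192-5p and miR-194-5p was not tested.

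The 12 further hypoxia-responsive microRNAs were all tested. None passed in CAF, 1 rose in DEX, 1 rose in CAF+DEX and none fell. miR-322-5p, the rat counterpart of human miR-424, rose by 1.13 ± 0.33 in DEX (SE, adjusted p = 0.0370), a call kept in 10 of 21 alternatives and lost without DEX2, DEX3, CAF5, CAFDEX2, ctrl1 or ctrl3. The most abundant, miR-23a-3p and miR-26b-5p, had log2 fold changes in DEX of -0.13 ± 0.24 and -0.22 ± 0.22. The list's median was -0.09 in CAF, -0.09 in DEX and -0.38 in CAF+DEX. miR-155-5p, the member that rose in CAF+DEX, is also an immune microRNA.

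Of 9 further microRNAs of injury and inflammation, all tested, 3 rose in CAF, 1 in DEX and 4 in CAF+DEX, and none fell. miR-122-5p, the main hepatocyte microRNA and a blood marker of liver injury, rose in all 3, by 1.78 ± 0.39, 1.64 ± 0.39 and 1.78 ± 0.39 (SE, adjusted p = 0.0137, 0.0175 and 0.0156 in CAF, DEX and CAF+DEX). Each of these calls was lost without ctrl1 or ctrl3, that in CAF also without CAF5, that in CAF+DEX without CAFDEX2 and that in DEX with median-of-ratios scaling (log2 fold change 1.23). The summed hepatocyte markers lay above all controls in every CAF, DEX and CAF+DEX library, but miR-122-5p made up most of that sum. It averaged 3476360 FPKM and the next marker, miR-192-5p, 202189 FPKM, so the sum is no separate observation. Of the 366 tested microRNAs 26%, 26% and 18% lay above all controls in CAF, DEX and CAF+DEX. The part of hepatocyte markers in the rise of miR-122-5p was not tested. miR-146a-5p, a brake on NF-kB signalling, rose by 1.18 ± 0.33 in CAF (0.0419) and 1.89 ± 0.33 in CAF+DEX (0.00390), the second call lost only with the haemolysis index as a covariate (1.31). miR-155-5p, induced in activated immune cells, rose by 1.89 ± 0.36 in CAF+DEX (0.00740), a call lost without CAFDEX2 and with that covariate (1.16). Of the 5 leukocyte markers, which include miR-155-5p, 1 rose in CAF, 0 in DEX and 2 in CAF+DEX. The other was miR-150-5p, a lymphocyte microRNA, which rose by 1.43 ± 0.31 in CAF (0.0137) and 2.20 ± 0.31 in CAF+DEX (0.00118), and the part of such markers was not tested. Of the injury list, miR-125b-5p rose by 1.49 ± 0.37 in CAF (0.0308) and 1.30 ± 0.37 in CAF+DEX (0.0423). The calls of miR-146a-5p in CAF, kept in 11 of 21 alternatives, and of miR-125b-5p, kept in 14 and 10, were the least stable of these, and each was lost without ctrl1 or ctrl3. Members of these lists were known from earlier results, and their counts are not independent support for a direction.

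Likeness to each member was the root mean square difference between log2 profiles over 12 libraries, each centred on its own mean, among 182 other tested microRNAs above the median level. Nearest to miR-21-5p were miR-15b-5p at 0.21, miR-34a-5p at 0.22 and miR-93-5p at 0.22 log2 units, where the median distance was 0.51. Nearest to miR-34a-5p were miR-93-5p at 0.16, miR-15b-5p at 0.17 and miR-148b-3p at 0.20. miR-210-3p lay nearest to miR-130a-3p at 0.21, miR-27a-3p at 0.22 and miR-24-3p at 0.23, where its own root mean square deviation was 0.19. Nearest to miR-22-3p were miR-361-5p at 0.30, miR-24-3p at 0.31 and miR-23a-3p at 0.31.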

How the data were processed

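Small RNA was isolated from 200 uL of serum (miRNeasy Micro Kit) and sequenced from QIAseq miRNA libraries, whose primers carry unique molecular indices, per the labels' protocols. The authors deposited FPKM per mature microRNA, with 836 rows for 752 names; FPKM times length has an equal sum in every library, which makes each value relative to the reads on listed microRNAs. DESeq2 1.20.0, Subread 2.0.1, featureCounts, STAR 2.7.10a, cutadapt 3.7 and build rn6 are named in the submitters' processing notes. Which step used which, and whether the indices were used, was not given in the sources. Column numbers do not match title numbers, so columns were matched to groups only. The length column (another deposited value, in bases) was used to recover reads: FPKM fell on steps of 0.01 read in all libraries, with a tolerance of 1e-06 of the value. Counting intervals are on rounded reads and cover counting error only.

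Loci of a name were summed. limma 3.58.1 (R 4.3.3) was fitted with a mean-variance trend on log2(FPKM + 40) over all 4 groups, for the 366 names that averaged 80 FPKM or more and were detected in 3 or more libraries. Tests are two-sided, with Benjamini-Hochberg adjustment over the 366 and a threshold of 0.05. Fold changes are ratios on this scale, which understates those of low microRNAs. Ratios of members were tested by exact permutation. Both tests were checked on simulated data. The named microRNAs are the members, their partner strands, passing or most abundant list members, and the 3 nearest profiles of each. Members and lists were chosen with earlier results of these data known. Of the listed names, miR-215, miR-605, miR-15a-5p and miR-486 matched no name used here.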

Additional observations from a re-analysis of the deposited data

How the results depend on the processing

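The 4 microRNAs stayed without a call in all 21 alternative settings (500 tests, smallest adjusted p = 0.0677), 12 of which left out 1 library each. No paired analysis was possible because the columns' numbers do not match the replicate numbers in the sample titles. Signs of their small log2 fold changes changed in 46 cases, 25 of them miR-34a-5p, and the cause was not tested. With median-of-ratios scaling, these were miR-34a-5p (CAF -0.23, DEX -0.18, CAF+DEX -0.13, CAF+DEX against DEX 0.054, interaction 0.28), miR-210-3p (CAF -0.055, DEX -0.36, CAF+DEX against DEX 0.013, interaction 0.068), miR-22-3p (DEX -0.27) and miR-21-5p (interaction 0.26). Without miR-191a-5p they were miR-34a-5p (CAF -0.091, DEX -0.045, CAF+DEX -0.19, CAF+DEX against CAF -0.095), miR-22-3p (DEX -0.13) and miR-210-3p (DEX -0.22). With the haemolysis index they were miR-34a-5p (CAF -0.14, DEX -0.16, CAF+DEX -0.28, CAF+DEX against CAF -0.14, interaction 0.024), miR-21-5p (CAF+DEX -0.13, interaction 0.084) and miR-22-3p (CAF+DEX 0.49). Without DEX2 and DEX3 they were miR-34a-5p (DEX -0.13, CAF+DEX against DEX 0.17, interaction 0.15) and miR-21-5p (CAF+DEX against DEX 0.036, interaction 0.048), and the log2 fold change of miR-22-3p in the interaction was -1.71. Leaving out single libraries, log2 fold changes that changed sign ran from -0.14 to 0.15 (miR-34a-5p, CAF), -0.15 to 0.14 (miR-21-5p, CAF), -0.33 to 0.47 (miR-22-3p, DEX), -0.055 to 0.20 (miR-210-3p, DEX), -0.080 to 0.16 (miR-34a-5p, CAF+DEX), -0.10 to 0.18 (miR-34a-5p, CAF+DEX against CAF) and -0.75 to 0.049 (miR-22-3p, CAF+DEX against DEX).

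Adjusted p of ratios without single libraries ran from 0.0226 to 0.898 (exact permutation, miR-21-5p to miR-22-3p) and 0.0333 to 0.947 (miR-22-3p to miR-34a-5p), the low ends without DEX1, and were 0.0493 and 0.0343 without DEX2 and DEX3. Those p-values were adjusted over the ratios and not over the settings, and DEX1 held an extreme of both ratios. Alternatives for the passing list members were added after seeing the data. Counts over all microRNAs moved more. Each count is a total of its own fit, not a subset of the count first named, and which microRNAs were shared was not counted. In CAF 29 passed in the fit reported, 11 without the filter, 19 with median-of-ratios scaling, 49 with voom, 5 with the haemolysis index, 64 in a fit of the groups alone and 45 without DEX2 and DEX3. In DEX 44 passed in the fit reported, 26 without the filter, 28 without miR-191a-5p, 1 with the index, 27 for the groups alone and 18 without DEX2 and DEX3. In CAF+DEX 40 passed, 13 without the filter and 1 with the index. In the interaction 17 passed, 9 without the filter, 8 with median-of-ratios scaling, 11 without miR-191a-5p and 7 with the index. For CAF+DEX against DEX 13 passed, and 0 by limma without DEX2 and DEX3, with 56 at an unadjusted p under 0.05. Without single libraries the counts ran from 4 to 44 (CAF), 12 to 74 (DEX), 4 to 56 (CAF+DEX), 9 to 24 (CAF+DEX against DEX) and 8 to 38 (interaction). Depth limits the tested partner strands, with 1 to 21.5 reads per library where any were found.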
